A study of Arabidopsis thaliana with 6 samples.

Results

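KINESIN-12B, AUR1, BUBR1, TOPII, PRL and POLA3 are genes of cell division, measured here in Arabidopsis suspension cells with and without induction of the transcription factor ATHB8. Each has 1 row on the array, so they are 6 of 16722 single-gene rows and 6 of 38408 rows in all. They were picked because their p-values were small in the comparison of induced with uninduced arrays, among mitosis and replication genes named on this array. Their differences are therefore given as a description and carry no test. Tests are given for other genes of the same processes.

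All arrays hold RNA of a dark-grown cell culture, named Alex in the labels, that carries an estrogen-inducible fusion of ATHB8 with green fluorescent protein. ATHB8 is a class III homeodomain leucine zipper protein known from procambium, the tissue that forms xylem and phloem. In the induced group (3 arrays) cells received 5 µM estrogen for 24 h, and in the uninduced group (3 arrays) the same cells were kept for 24 h without it. The series asks which genes act downstream of ATHB8. Both groups carry the transgene, and no cells without it are among the samples, so a response to estrogen itself and a response to ATHB8 cannot be told apart. ATHB8 has no row under its name.

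In dividing plant cells, DNA is copied in S phase by a helicase that opens the double strand, a primase that starts each new strand and polymerases that extend it. In mitosis the Aurora kinases and the spindle checkpoint control how chromosomes attach to the spindle. Plant cells then build a new wall between the daughter nuclei along the phragmoplast, an array of microtubules on which kinesins work. The transcripts of many of these genes are made only in part of the cell cycle, so their level in bulk RNA depends on how many cells divide. In such RNA, fewer dividing cells and less RNA per dividing cell cannot be told apart.

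Values are log2 signals as deposited, and 3 arrays in each group limit the precision of every one. The replicate 1 arrays stood apart from the other 4. Their median log2 signal was 5.95 in both groups, against 5.80 to 5.84 on the other arrays, and they held exactly the same value in 12229 rows (31.8%), where no other pair of arrays shared more than 23. None of the 6 genes was among these rows (0 of 6). Each difference is therefore also given for replicates 2 and 3 alone. Nothing in the labels says that replicates are separate cultures, so p-values may measure only technical spread.

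KINESIN-12B (AT3G23670) encodes a motor protein of the phragmoplast that keeps its microtubules ordered during cytokinesis. Its log2 signal was 8.79, 8.83 and 8.77 in induced replicates 1, 2 and 3, and 9.37, 9.42 and 9.37 in the uninduced ones. The induced arrays all lay below the uninduced arrays, with a gap of 0.53 between the nearest arrays. The difference of the means was -0.59 ± 0.10 (SE, n = 3 per group), which is 66.4% of the uninduced level, and -0.60 in replicates 2 and 3. The SD between replicates was 0.03 in both groups.

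AUR1 (AT4G32830) encodes an Aurora kinase of the spindle and the cell plate. It gave 10.96, 10.88 and 10.94 in the induced arrays and 11.38, 11.36 and 11.28 in the uninduced arrays. The groups were separated by 0.32. The mean difference was -0.42 ± 0.10 (SE, n = 3 per group), or 75.0% of the uninduced level, and it was -0.41 in replicates 2 and 3.

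BUBR1 (AT2G33560) belongs to the spindle checkpoint, which holds back anaphase until chromosomes are attached. Its induced signals were 10.02, 9.68 and 9.66 and its uninduced signals 10.34, 10.13 and 10.27. Induced replicate 1 was well above the other induced arrays, so that the gap to the uninduced group was 0.11. The difference was -0.46 ± 0.14 (SE, n = 3 per group), which is 72.6% of the uninduced level, and it was -0.53 in replicates 2 and 3.

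**Figure D1:**
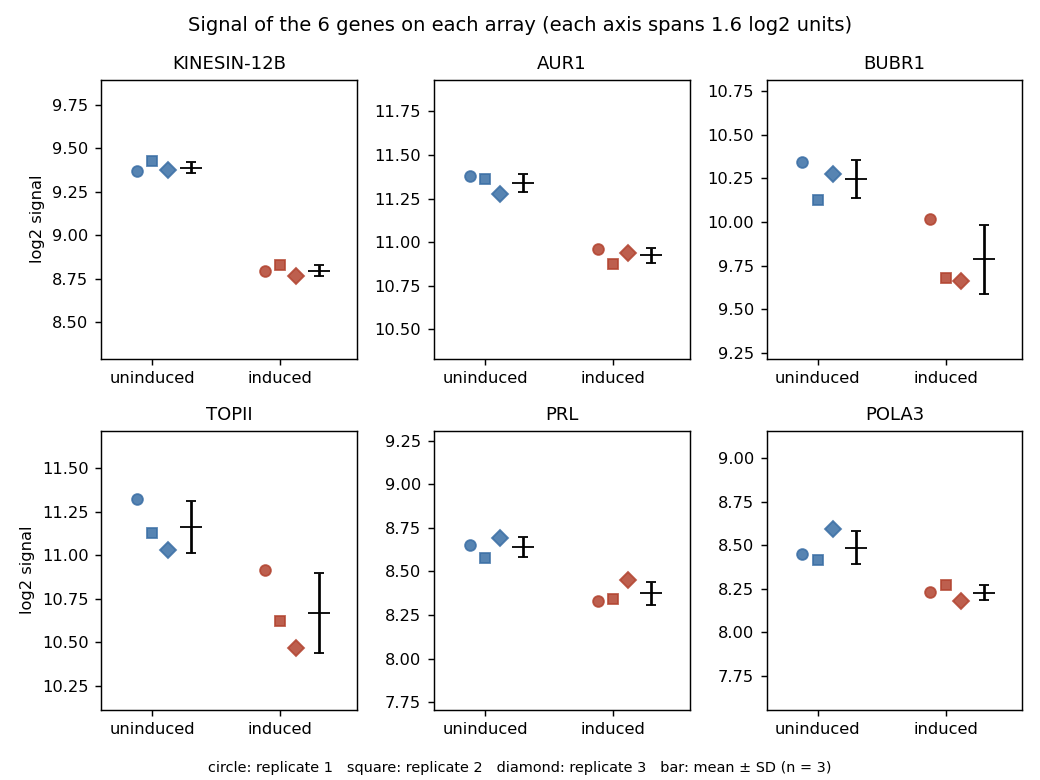
Log2 signal of KINESIN-12B, AUR1, BUBR1, TOPII, PRL and POLA3 on each array (points; shape gives the replicate), with mean ± SD (n = 3) per group. In each of the 6 panels the induced points lie below the uninduced points, by 0.53 for KINESIN-12B and 0.11 for BUBR1 and TOPII at the nearest arrays.

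TOPII (AT3G23890) encodes a type II DNA topoisomerase, an enzyme that untangles DNA behind replication forks and before chromosomes part. The induced arrays read 10.92, 10.62 and 10.47 and the uninduced arrays 11.32, 11.13 and 11.03. In both groups replicate 1 was the highest array, and the groups were 0.11 apart. The mean difference was -0.49 ± 0.16 (SE, n = 3 per group), or 71.1% of the uninduced level, and it was -0.54 in replicates 2 and 3.

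PRL (AT4G02060), PROLIFERA, is MCM7, a subunit of the helicase that opens DNA at origins and forks. Signals of 8.33, 8.34 and 8.45 in the induced arrays stood against 8.65, 8.58 and 8.69 in the uninduced arrays. The arrays of the groups did not overlap and were 0.12 apart. The difference of -0.26 ± 0.10 (SE, n = 3 per group) is 83.2% of the uninduced level, and the value in replicates 2 and 3 was -0.24.

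POLA3 (AT5G41880) encodes a subunit of the DNA polymerase alpha and primase complex, which starts new strands. Its induced signals were 8.23, 8.27 and 8.18, and its uninduced signals 8.45, 8.42 and 8.59. Again no array of one group reached the other, with a gap of 0.14. The mean difference was -0.26 ± 0.10 (SE, n = 3 per group), or 83.7% of the uninduced level, and it was -0.28 in replicates 2 and 3.

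Side by side, the mitosis genes differed by -0.59 to -0.42 and the replication genes by -0.49 to -0.26. TOPII lay within the range of the mitosis genes, and PRL and POLA3 lay closer to 0 than each of them. The groups were fully apart in all 6 genes. Across the whole array, every induced signal lay below every uninduced one in 6.43% of rows. The genes were chosen on this contrast, so nothing is read from that count. Rows with equal replicate 1 arrays (31.8%) cannot have their groups apart, which lowers every such share of all rows. In the same-numbered pairs of arrays, 18 of 18 differences were negative, from -0.61 (BUBR1, pair 3) to -0.14 (POLA3, pair 2). Groups that are fully apart fix this sign in every pair, so the count adds nothing to the separation. All 3 pairs were lower in 16.4% of all rows. The mean difference over the mitosis genes was -0.44, -0.51 and -0.52 in pairs 1, 2 and 3, and over the replication genes -0.32, -0.29 and -0.40.

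**Figure D2:**
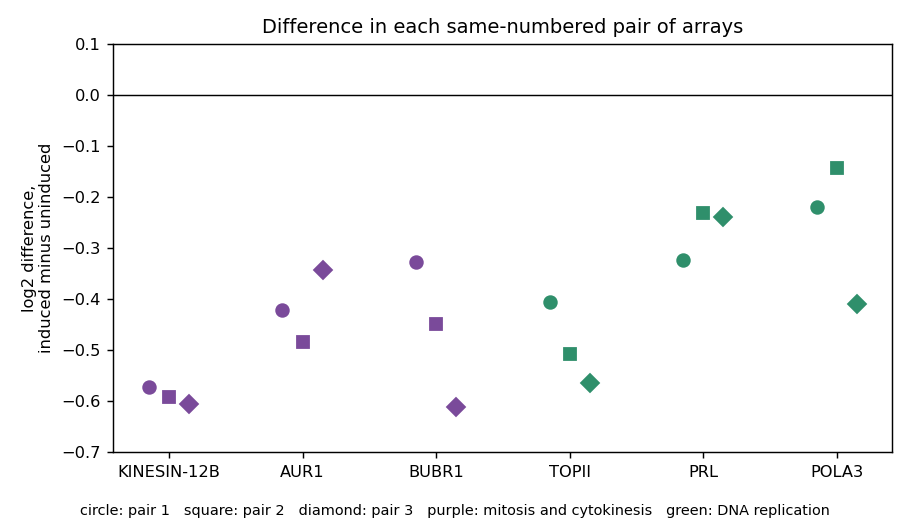
Log2 difference, induced minus uninduced, in each same-numbered pair of arrays (points) for the mitosis genes (purple) and the replication genes (green). All 18 points lie below 0, as they must where the groups do not overlap. The KINESIN-12B points lie between -0.61 and -0.57 and the POLA3 points between -0.41 and -0.14.

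The genes differed in how far the replicate 1 arrays departed from the others. For TOPII, replicate 1 exceeded the mean of replicates 2 and 3 by 0.37 in the induced group and 0.24 in the uninduced group. BUBR1 showed offsets of 0.35 and 0.14. AUR1 (0.05 and 0.06), KINESIN-12B (-0.01 and -0.03), PRL (-0.07 and 0.02) and POLA3 (0.00 and -0.05) showed little. Over all rows the median offset was 0.06 in both groups. The wider SD of TOPII (0.23 induced, 0.15 uninduced) and BUBR1 (0.20 and 0.11) came with these offsets. For both genes the difference was farther from 0 in replicates 2 and 3 than over all arrays. The same held for KINESIN-12B (-0.60 against -0.59) and POLA3 (-0.28 against -0.26), but not for AUR1 and PRL.

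**Figure D3:**
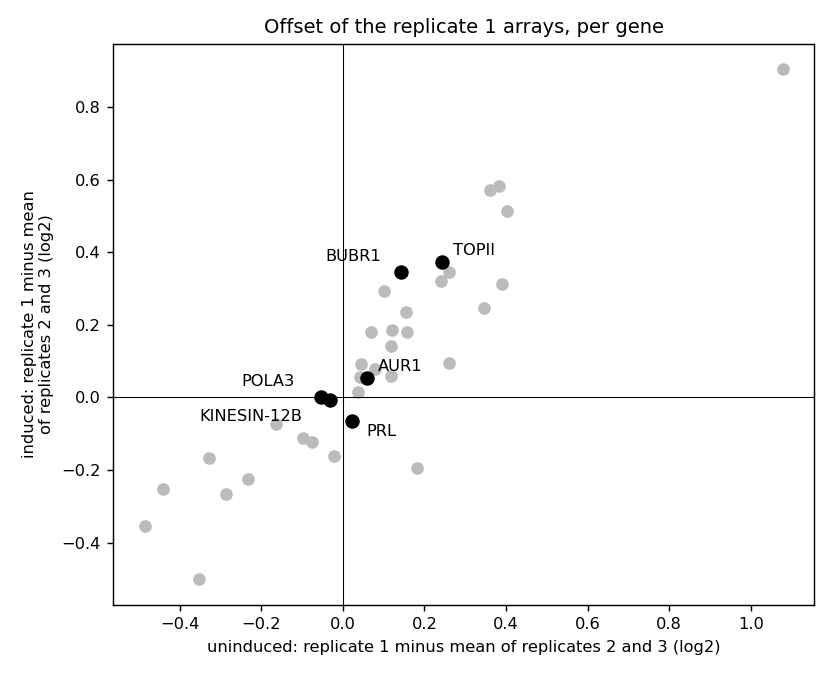
Replicate 1 minus the mean of replicates 2 and 3, in log2 units, in the uninduced group (horizontal axis) and the induced group (vertical axis), for the 6 genes (black, named) and the other mitosis and replication genes (grey). TOPII and BUBR1 lie in the upper right, at 0.37 and 0.35 on the vertical axis, and the other 4 named genes lie within 0.07 of 0 on both axes.

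Other genes of mitosis and cytokinesis also lay lower in the induced cells in most cases, but none passed the test. Of the array's 38408 rows, 20927 carry no gene name in the annotation used here, so a gene without a named row may still have probes. Another 759 rows with a semicolon in their name were read as naming several genes and left out of the lists. Symbols of listed cyclins and their kinases also hold a semicolon, so rows of these genes may be among the 759. Here and below, a named row is one that was kept. Of 165 symbols listed for these processes, 15 genes had a named row, and 12 of these are not among the 6 genes above. Of the 12, 11 lay lower and 1 higher, with a median log2 difference of -0.27, against -0.01 over all rows, of which 51.7% lay lower. Leaving out 1 array gave medians from -0.31 to -0.18, with 10 to 12 genes lower. Counted as lower were KEU (-0.001 ± 0.13, SE, n = 3 per group) and HBT (-0.03 ± 0.10), with differences smaller than their SE. The higher gene was TON1B (0.10 ± 0.19). In limma 0 of the 12 passed at an adjusted p under 0.05 over all rows, where 0.961% of rows passed. At an unadjusted p under 0.05, 2 lay lower and 0 higher (4.31% and 4.17% of all rows). In 9 of the 12 all 3 same-numbered pairs were lower, against 16.4% of all rows. That share is lowered by rows with equal replicate 1 arrays, which cannot qualify. They make up 31.8% of all rows but only 1 of the 12. The B-type cyclins, the B-type cyclin-dependent kinases and KNOLLE, often used to mark mitosis, were not analysed here.

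AUR2 is the closest relative of AUR1, and the array probes of such similar genes may share signal, which was not tested. AUR2 gave 10.39, 9.85 and 9.78 in the induced arrays and 10.84, 10.58 and 10.38 in the uninduced arrays. Its groups overlapped at their edges, since induced replicate 1 lay just above uninduced replicate 3. The difference was -0.59 ± 0.21 (SE, n = 3 per group; limma adjusted p = 0.443). AUR3, the Aurora kinase of centromeres, differed by -0.21 ± 0.13 (0.911), with overlapping groups. WYR, the plant counterpart of the Aurora partner INCENP, comes from a further list of 7 mitosis and cytokinesis genes drawn up from the array's symbols. It gave 7.93, 8.14 and 8.11 induced and 8.62, 8.50 and 8.37 uninduced. The WYR groups did not overlap, and the difference was -0.44 ± 0.12 (adjusted p = 0.263).

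BUB3.1 and BUB3.2 encode checkpoint proteins of the BUB3 family and lay lower beside BUBR1. BUB3.1 differed by -0.31 ± 0.15 (SE, n = 3 per group; limma adjusted p = 0.706) and BUB3.2 by -0.41 ± 0.21 (0.761). As with BUBR1 the replicate 1 arrays were the highest of each group: for BUB3.2 they exceeded the other replicates by 0.58 (induced) and 0.38 (uninduced). The groups of both genes overlapped.

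3xHMG-box1, a protein that binds chromosomes in mitosis, had the smallest p of the 12. Its signals were 9.50, 9.68 and 9.57 induced and 10.01, 10.19 and 9.98 uninduced, with no overlap. The difference of -0.47 ± 0.12 (SE, n = 3 per group) did not pass (limma adjusted p = 0.190). Haspin, a kinase that marks histone H3 in mitosis, differed by -0.28 ± 0.12 (0.608), also without overlap. The groups were apart with the induced arrays lower in 3 of the 12, against 6.43% of all rows. In the further list of 7 genes, 6 lay lower and 1 higher, with a median log2 difference of -0.10. The higher gene was CDC27a, without overlap (0.15 ± 0.11, limma adjusted p = 0.956). ATMAP65-6 differed most of the 7: 7.79, 7.59 and 7.52 in the induced arrays against 8.46, 8.26 and 8.36. It belongs to the MAP65 family of microtubule-binding proteins, of which only some members act in the phragmoplast. Its difference was -0.73 ± 0.12, or 60.4% of the uninduced level, and missed the threshold (adjusted p = 0.0685). It passed in 7 of 16 other settings (adjusted p from 0.0153 to 0.315), though in 0 of the 6 that left out 1 array. KINESIN-13A, the only other named row with the word kinesin in its symbol or synonyms, differed by -0.10 ± 0.11 (1.0).

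**Figure D4:**
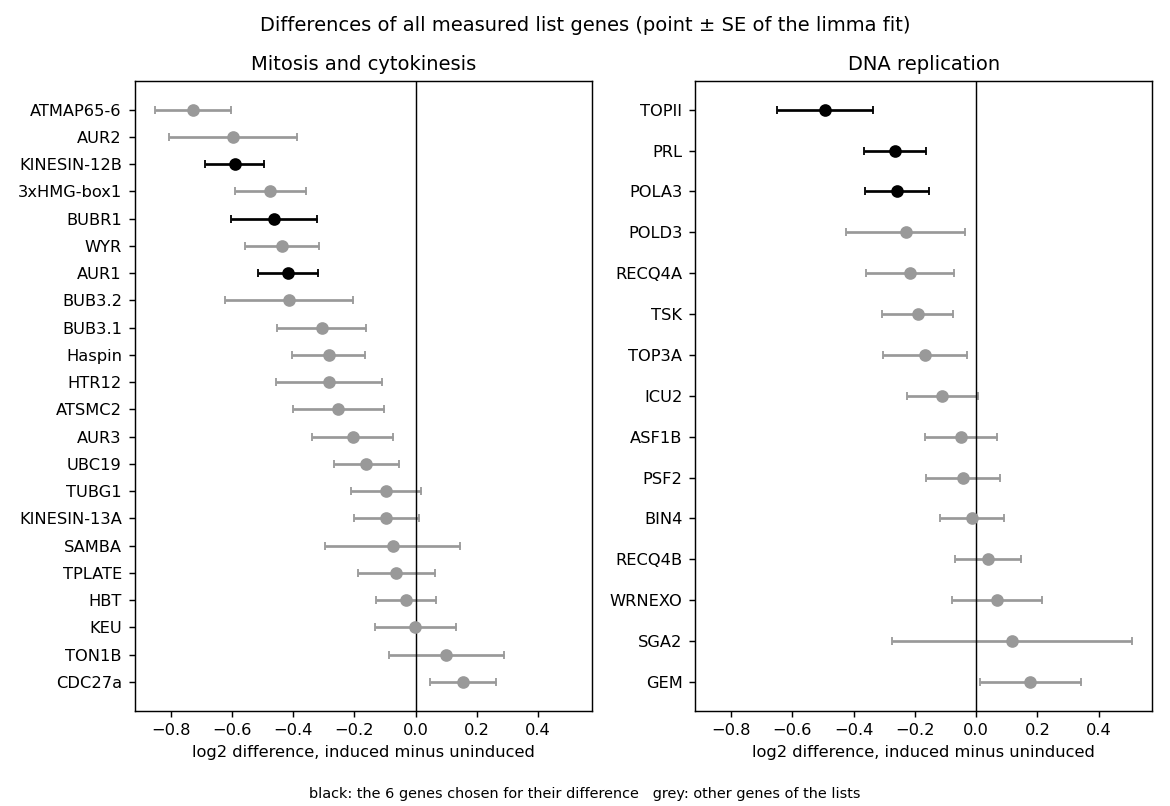
Log2 difference, induced minus uninduced (point ± SE of the limma fit), of all measured genes of mitosis and cytokinesis (left) and DNA replication (right), with the genes chosen for their difference in black. The mitosis genes reach from -0.73 (ATMAP65-6) to 0.15 (CDC27a), and the grey replication genes from -0.23 (POLD3) to 0.18 (GEM).

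The other replication genes lay closer to 0. Of 114 symbols listed, 10 genes had a named row, and 7 of them are not among the 6 genes above. Of the 7, 5 lay lower and 2 higher, with a median difference of -0.05. That median was -0.01 without induced replicate 2 and -0.11 without uninduced replicate 2. In limma 0 of the 7 passed (0.961% of all rows did), and 0 had an unadjusted p under 0.05 (4.31% of all rows lower, 4.17% higher). With shares this low, 0 of 7 says little. ICU2, the catalytic subunit of DNA polymerase alpha and so a partner of POLA3, differed by -0.11 ± 0.12 (SE, n = 3 per group; limma adjusted p = 1.0). POLD3, a subunit of polymerase delta, differed by -0.23 ± 0.19 (1.0), and TOP3A, a type I topoisomerase, by -0.17 ± 0.14 (1.0). PSF2, a subunit of the GINS complex that joins the MCM helicase at forks, was chosen after its values were seen and differed by -0.04 ± 0.12 (1.0). Its replicate 1 arrays held equal values, as in 3 of the 7 genes, which sets their pair 1 difference to 0. The histone chaperone ASF1B (-0.05 ± 0.12) and the exonuclease WRNEXO (0.07 ± 0.15) had an adjusted p of 1.0 as well. In a further list of 5 replication genes, TSK, which reads new histones after replication, differed by -0.19 ± 0.12 (0.891), and 0 of the 5 passed. The remaining MCM subunits and the sliding clamp genes PCNA1 and PCNA2 were not analysed here.

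In the list for the step from G1 to S phase, SIM lay higher in the induced cells and FBL17 lower, though neither passed. SIM, SIAMESE, is an inhibitor of cyclin-dependent kinases known for stopping division in leaf hairs that replicate DNA without mitosis. It gave 6.31, 6.46 and 6.41 in the induced arrays and 6.02, 5.88 and 5.76 in the uninduced arrays. The groups did not overlap, as in 5.82% of all rows with the induced arrays higher, and the difference was 0.51 ± 0.12 (SE, n = 3 per group), or 142% of the uninduced level (limma adjusted p = 0.164). SIM passed in 1 of 16 other settings, the one confined to rows at or above the median signal (adjusted p = 0.0424), with a range of 0.0424 to 0.570. FBL17, an F-box protein that removes other inhibitors of these kinases, differed by -0.26 ± 0.13 (0.733), without overlap. TSO1, a chromatin-binding protein that limits division, differed by -0.11 ± 0.16 (1.0), and SKP2A, an F-box protein of the cell cycle, by 0.20 ± 0.14 (0.949). Of 61 symbols listed these 4 genes had a named row, and 0 passed in limma (0.961% of all rows did). An unadjusted p under 0.05 was reached by 1 of the 4, SIM, against 4.17% of all rows in its direction.

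**Figure D5:**
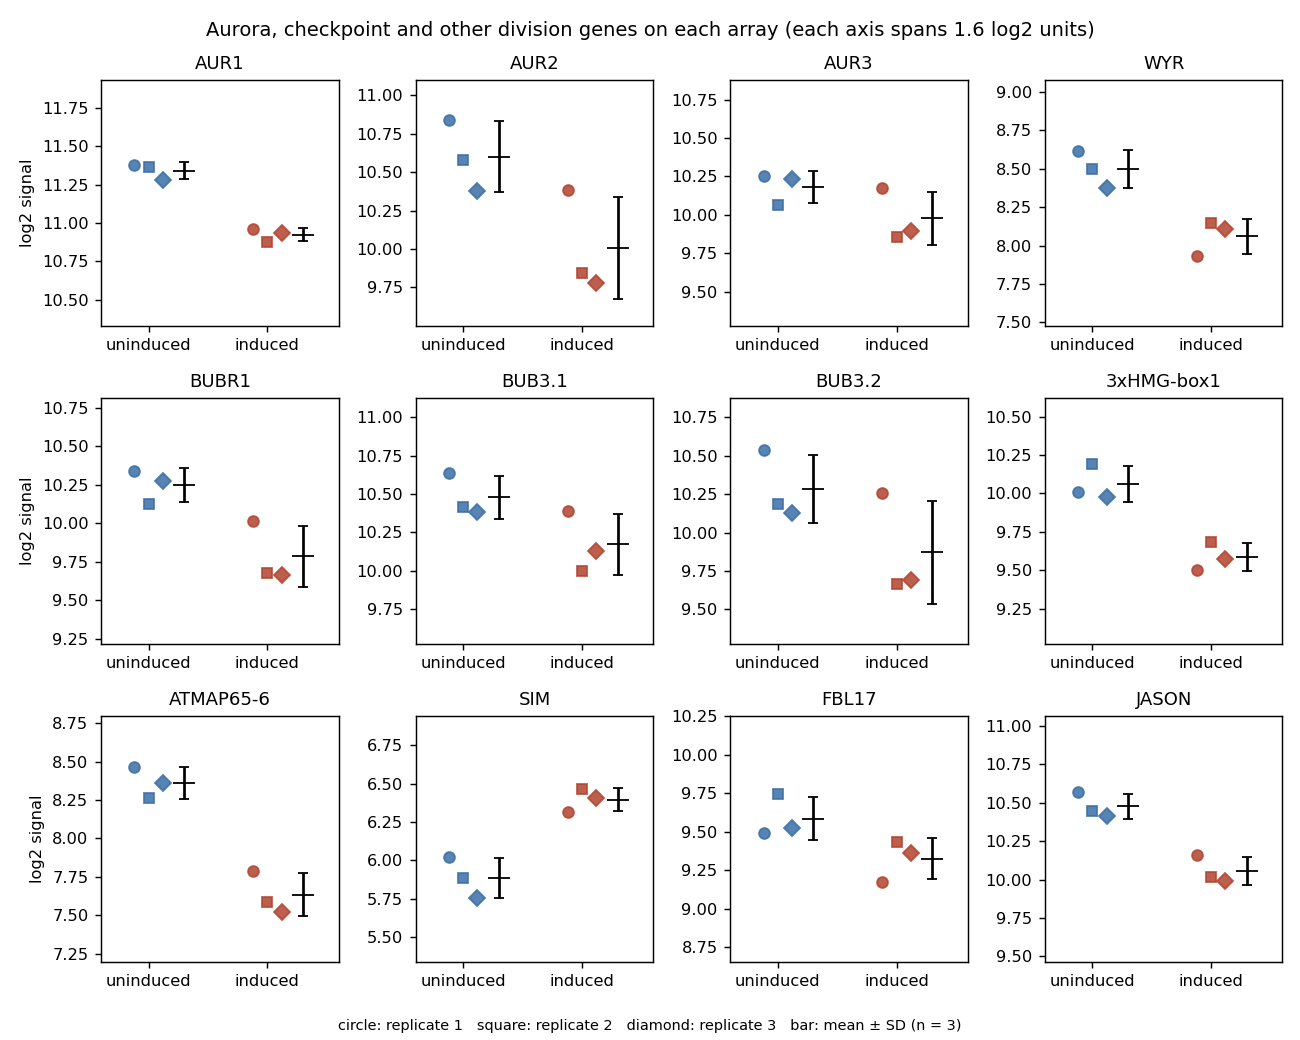
Log2 signal on each array (points; shape gives the replicate) with mean ± SD (n = 3) for the Aurora kinases and WYR, the checkpoint genes, and further division genes. The induced points lie below the uninduced points in AUR1, WYR, BUBR1, 3xHMG-box1, ATMAP65-6, FBL17 and JASON, and above them in SIM, at 6.31 to 6.46 against 5.76 to 6.02.

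Histone genes, many of which are made in S phase, showed no common direction. Of 8 histone genes, 4 lay lower and 4 higher. In limma 0 passed (0.961% of all rows did), and 0 had an unadjusted p under 0.05 (4.31% of all rows lower, 4.17% higher). The median log2 difference of the 8 genes was -0.05. It changed sign with single arrays, from -0.09 without uninduced replicate 3 to 0.02 without uninduced replicate 2. The replicate 1 arrays were equal in 4 of the 8. HTR12, the centromeric histone H3 that also stands in the mitosis list, differed by -0.28 ± 0.17 (SE, n = 3 per group; limma adjusted p = 0.889), and HON4, a linker histone relative, by -0.15 ± 0.11 (0.980). HTB2, a histone H2B (-0.11 ± 0.12), MGH3, a histone H3 of male gametes (0.14 ± 0.23), and HIS1-3, a linker histone known from drought (0.10 ± 0.17), all had an adjusted p of 1.0. Histone H2B genes share long stretches of sequence, so the signals of HTB1, HTB2, HTB4 and HTB11 may not be separate.

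Further groups were drawn up from the array's symbols for comparison. Of 6 tubulin genes, 4 lay lower, with a median of -0.07, of 13 DNA repair genes 8, with a median of -0.06, and of 9 meiosis genes 6, with a median of -0.06. None of these passed in limma (0 of 28, against 0.961% of all rows). The groups were apart with the induced arrays lower in 0 of the 6 tubulin, 3 of the 13 repair and 2 of the 9 meiosis genes. This compares with 3 of the 12 mitosis genes and 6.43% of all rows. They were apart with the induced arrays higher in 1 tubulin, 1 repair and 0 meiosis genes, against 5.82% of all rows. Rows with equal replicate 1 arrays made up 2 of the 6 tubulin, 4 of the 13 repair and 2 of the 9 meiosis genes. Such rows, 1 of the 12 mitosis genes, cannot be apart and have a pair 1 difference of 0. These lists and the mitosis list are therefore not compared on equal terms. Without 1 array the medians ran from -0.05 to -0.01 (without uninduced replicate 2) for tubulin, from -0.10 (without induced replicate 3) to -0.01 (without uninduced replicate 3) for repair, and from -0.10 (without uninduced replicate 1) to 0.03 (without uninduced replicate 3) for meiosis. At an unadjusted p under 0.05, 1 tubulin gene lay higher, and 1 repair gene and 1 meiosis gene lay lower, where 4.17% of all rows were higher and 4.31% lower. The meiosis gene was JASON, known for placing the spindles of male meiosis II, with signals of 10.16, 10.02 and 9.99 induced and 10.57, 10.45 and 10.42 uninduced. Its difference of -0.42 ± 0.11 (SE, n = 3 per group; adjusted p = 0.222) was made up of -0.41, -0.43 and -0.43 in the same-numbered pairs.

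As for other cell types, 0 of 18 xylem symbols and 2 of 12 phloem symbols had a named row. Those without one may lie among the rows that were unnamed or left out. CLE41, which encodes a peptide made in phloem, fell by 1.04 ± 0.14 log2 units (SE, n = 3 per group; limma adjusted p = 0.0393). It passed in 7 of 15 other settings (limma adjusted p from 0.0210 to 0.189). With the replicate number as a block it did not pass (0.0734), nor without any 1 of the 6 arrays (0.105 to 0.189). CLE44 differed by -0.40 ± 0.20 (0.751). The log2 signal of CLE41 was 5.22 to 5.37 in the induced and 6.16 to 6.59 in the uninduced arrays, and that of CLE44 was 9.69 to 10.24 and 10.08 to 10.53. Their part in the differences of the division genes was not tested.

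The rows most like each gene over the 6 arrays were sought among 7873 other single-gene rows at or above the median signal. Pearson's r is a description here, since 6 arrays in 2 groups give high values to many rows: r exceeded 0.95 in 213 rows for KINESIN-12B and in 50 for POLA3. Nearest to KINESIN-12B were AT1G67590 (r = 0.9985) and AT4G02800 (0.9982), which differed by -1.59 and -0.62. AUR1 was most like AT1G27880 (0.9964) and AT5G58530 (0.9961), and BUBR1 most like AT2G44670 (0.9982) and PRA1.B4 (0.9978). TOPII had AT3G44770 (0.9975) and BZIP60 (0.9963) as its nearest, PRL had AT3G02030 (0.9920) and AT3G53320 (0.9890), and POLA3 had AT5G23490 (0.9982) and AT5G48770 (0.9922). No gene was among the nearest 2 of more than one of the 6.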

How the data were processed

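Total RNA was hybridised to a whole-transcript array. Per the submitters' processing notes the authors made the deposited log2 expression values with Affymetrix Expression Console 1.3. Background correction, normalization and genome build are not given in the sources used here, so the values entered unchanged and no position is printed. Rows were named through the platform's annotation, and loci and synonyms came from RefSeq (TAIR10.1). FACT (AT5G63560), an unrelated gene of the same symbol as a histone chaperone, was left out.

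All 38408 rows were fitted together by lmFit and eBayes of limma 3.58.1 (R 4.3.3) on the group alone, without filter. Two-sided p-values were adjusted by Benjamini-Hochberg, with calls under 0.05. SE values are from this fit, which was tested on simulated data with independent noise on each array. The simulation did not hold the replicate 1 values shared between the groups, so it cannot show their effect on the SE. An exact permutation test of 3 against 3 arrays cannot go below p = 0.1. Deviations from the group mean correlated across rows at 0.633, 0.268 and 0.248 between arrays of one number, all over the 0.1 set for pairing, although crossed pairs of replicates 2 and 3 gave 0.244 and 0.260. The pairing thus rests on the data and on replicate 1. A fit with a replicate block was an alternative, beside other normalizations, filters, variance priors, distinct rows, gene means and leaving out arrays.

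The 6 genes and all lists were chosen with earlier results of these data known. The lists of added mitosis and replication, meiosis, repair and tubulin genes were drawn up after the files were seen. Named genes are the 6, every called list gene or otherwise up to 5 per list with the smallest p, family partners of the 6, and the 2 rows most like each. KEU, HBT, TON1B and PSF2 were added after their values were seen. Plots were made in Python 3.11.15 (matplotlib 3.10.9).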

Additional observations from a re-analysis of the deposited data

How the results depend on the processing

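The differences of the 6 genes kept their sign and moved by less than the SD between replicates in 11 of 11 alternatives each. Most of these outcomes were fixed in advance. The replicate block and the gene means return the same difference by design. Leaving out 1 of 3 arrays cannot reverse groups that do not overlap, nor shift a difference by that SD. The count of 11 is therefore no measure of stability. Leaving out 1 array gave -0.61 to -0.57 for KINESIN-12B, -0.45 to -0.39 for AUR1, -0.58 to -0.40 for BUBR1, -0.62 to -0.39 for TOPII, -0.30 to -0.24 for PRL and -0.29 to -0.20 for POLA3. Apart from the 6 genes, which were not tested, 0 of the 12 mitosis and 0 of the 7 replication genes passed in the 16 other fits, nor did the 8 histone genes or KINESIN-13A, the only other listed kinesin with a named row. The added mitosis and replication genes brought 0 calls as deposited, and of these ATMAP65-6 passed in 7 of 16 other fits. The G1 to S list went from 0 to 1 (SIM) with rows at or above the median signal, and the meiosis list from 0 to 1 (JASON, adjusted p = 0.0476, range 0.0476 to 0.660) with a block that sets replicate 1 against the others. Over all rows 369 were called. The count was 242 with the replicate block, 1106 with the block of replicate 1 against the others, and 80 in replicates 2 and 3 alone. It was 827 and 691 with rows at or above the median and the 25th percentile of signal. A trended robust prior gave 706 and distinct rows gave 613. Leaving out 1 array gave 48 (without uninduced replicate 3) to 167 (without induced replicate 1). Apart from the call of CLE41, the replicate block changed no call of a list gene. No background level was used here, so what low signal limits was not measured.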
